A study of Mus musculus with 1248 samples.

Results

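Genes of 2 stress pathways, the chaperones and quality control of the endoplasmic reticulum (ER) and the integrated stress response, were followed in single mammary carcinoma cells in bone, in a fat pad tumour and in culture. They are 30 genes chosen by symbol, all found in a table of 40756 mouse genes. They comprise 12 chaperones and folding enzymes (Hspa5, Hsp90b1, Calr, Canx, Pdia3, Pdia4, Pdia6, Dnajc3, Dnajb9, Creld2, Manf and Hyou1), 5 genes of the translocon and of ER-associated degradation, or ERAD (Sec61b, Herpud1, Edem1, Sel1l and Syvn1), and 4 genes of the stress sensors (Ern1, Xbp1, Atf6 and Eif2ak3). The other 9 form the ATF4 arm (Atf4, Atf5, Ddit3, Chac1, Trib3, Ppp1r15a, Asns, Sesn2 and Nupr1). Chaperones and the ATF4 arm are given apart throughout.

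Secreted and membrane proteins fold in the ER with the help of chaperones, and misfolded ones are returned to the cytosol for degradation. When unfolded proteins accumulate, IRE1 (encoded by Ern1) splices Xbp1 mRNA and ATF6 is cleaved into an active factor, and both XBP1 and ATF6 induce chaperone and ERAD genes. PERK (encoded by Eif2ak3) phosphorylates the translation factor eIF2alpha, as do kinases that sense amino acid shortage, double-stranded RNA or haem shortage. This integrated stress response slows protein synthesis while ATF4 is translated more, and ATF4 induces genes of amino acid supply, redox balance and cell death.

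Single cells of the BALB/c mammary carcinoma line 4T1 and of 4T1.2, a clone of it, both carrying firefly luciferase and mCherry, were read by Smart-seq2, a full-length method, 1 cell per well. The groups were 4T1 cells from the hindlimb bones of female BALB/c mice 4, 10 and 16 days after injection into the heart, 4T1 cells from a tumour grown in a mammary fat pad, taken on day 22, and cultured 4T1 cells, and for 4T1.2 cells from bone on day 4 and cultured cells. Cells were sorted for mCherry, and wells with a late mCherry signal in qPCR were discarded, per the labels. All groups share the reporters, no group carries a drug or a gene knockout, and the labels name no animal, plate or culture for a well. Each group therefore counts as 1 sample, no difference was tested, and wells are used only to show the spread within a group.

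Of 1248 wells, 1218 passed the filters, and 717 of these did not look like the carcinoma cells they are labelled as. In those 717 host wells the summed level of 4 blood cell genes (Ptprc, Coro1a, Laptm5 and Rac2) was above that of the keratins Krt8 and Krt18, and in the other 501, the tumour wells, it was below. Tumour and host wells numbered 137 and 359 in 4T1 bone on day 4, 54 and 41 on day 10, 71 and 119 on day 16, 85 and 10 in the fat pad, and 47 and 188 in 4T1.2 bone, whereas the 54 wells of 4T1 culture and 53 of 4T1.2 culture were all tumour wells. Host wells also held mCherry reads. On day 4 in 4T1 bone the median was 405 CPM (counts per 1000000 gene counts) in tumour wells and 1905 CPM in host wells, whereas in the other groups with host wells it was higher in tumour wells, at 550 and 295 CPM on day 10, 682 and 184 CPM on day 16, 594 and 13.2 CPM in the fat pad and 360 and 198 CPM in 4T1.2 bone. A median well held 2647149 to 3054736 counts, depending on the group. All 8 epithelial markers were at 5 CPM or more in the tumour wells of each 4T1 group, but only 4 of 8 in 4T1.2 bone and 3 of 8 in 4T1.2 culture. The summed level of 8 blood cell markers in tumour wells was 140 CPM on day 4, 366 CPM on day 10, 339 CPM on day 16, 29.4 CPM in the fat pad, 6.62 CPM in 4T1 culture, 580 CPM in 4T1.2 bone and 139 CPM in 4T1.2 culture, against 5348 to 9842 CPM in host wells. Its part in the results below was not tested. In groups that mix cells, fewer cells with a transcript and less RNA per cell cannot be told apart in a summed level.

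The letters before the genes differed between the arms. The ER stress element, ERSE, read by ATF6 and XBP1, was searched as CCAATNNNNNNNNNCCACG on both strands, and the ATF4 element, CARE, as TGATGNAA, in the 300 bases around each start in the RefSeq promoters of GRCm38.p6. ERSE was in 7 of the 10 chaperones that had a promoter (Calr, Canx, Creld2, Dnajc3, Hsp90b1, Hspa5 and Pdia6) and in Syvn1, against 0.119% of 32851 promoters. CARE was in 4 of the 9 ATF4-arm genes (Asns, Chac1, Nupr1 and Trib3) and in Herpud1, against 3.97% of promoters. Herpud1 also held the related element ERSE-II (ATTGG, any base, then CCACG), found in 0.0365% of promoters, and Ppp1r15a held the cyclic AMP element TGACGTCA, found in 1.79%. The XBP1 element searched as TGACGTGG, in 0.676% of promoters, was in none of the 27 genes that could be matched. A match is a string of letters and not a measured binding site. The genes were grouped by what is known of these pathways, so matches in them describe the lists and test nothing. Dnajb9 and Xbp1 held no match of any element searched, and matches were not compared with levels. The windows below are of 9 genes picked among those with a match, upstream of the start and read in the direction of the gene. Each match is in capitals (ERSE in Hspa5, Hsp90b1, Calr and Pdia6, ERSE-II in Herpud1, CARE in Asns, Chac1 and Nupr1, and the cyclic AMP element in Ppp1r15a). In Calr, Chac1, Nupr1 and the second match of Hsp90b1 the element lies in the opposite direction.
Hspa5, chr2:34772004-34772063, plus strand: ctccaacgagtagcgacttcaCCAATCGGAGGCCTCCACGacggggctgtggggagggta
Hsp90b1, chr10:86705523-86705666, minus strand: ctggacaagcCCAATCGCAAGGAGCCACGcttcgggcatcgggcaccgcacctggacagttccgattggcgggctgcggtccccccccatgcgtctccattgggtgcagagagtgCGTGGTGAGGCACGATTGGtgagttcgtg
Calr, chr8:84847055-84847114, minus strand: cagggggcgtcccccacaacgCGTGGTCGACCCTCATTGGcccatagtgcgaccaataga
Pdia6, chr12:17266470-17266529, plus strand: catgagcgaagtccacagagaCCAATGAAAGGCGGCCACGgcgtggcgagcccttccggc
Herpud1, chr8:94386352-94386411, plus strand: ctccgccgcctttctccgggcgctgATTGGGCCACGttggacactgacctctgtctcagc
Asns, chr6:7693210-7693269, minus strand: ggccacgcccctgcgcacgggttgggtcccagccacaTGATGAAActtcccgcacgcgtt
Chac1, chr2:119351023-119351082, plus strand: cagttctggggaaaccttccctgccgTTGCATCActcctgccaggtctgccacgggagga
Nupr1, chr7:126625547-126625606, minus strand: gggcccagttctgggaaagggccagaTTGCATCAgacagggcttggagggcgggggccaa
Ppp1r15a, chr7:45526269-45526328, minus strand: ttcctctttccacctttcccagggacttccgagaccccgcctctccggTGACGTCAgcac

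Levels per length put Hspa5, which encodes the chaperone BiP, first of the 30 genes in the tumour wells of all 7 groups. It ranged from 490 CPM per kilobase of exon in the fat pad to 1032 CPM per kilobase in 4T1.2 culture. The lectin chaperone Calr and the disulfide isomerase Pdia3 came next in most groups, and the sensors Ern1 and Eif2ak3 stood at the low end, between 0.814 and 2.39 CPM per kilobase. Nupr1, a small stress-induced nuclear protein, stood at rank 2 in bone on day 16 with 450 CPM per kilobase, against rank 16 in 4T1 culture with 37.4 CPM per kilobase. Asns, asparagine synthetase, had rank 24 on day 16 and rank 7 in 4T1 culture. Ranks next to each other were often close, as in the fat pad, where Pdia3 and Nupr1 were at 347 and 347 CPM per kilobase.

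**Figure D1:**
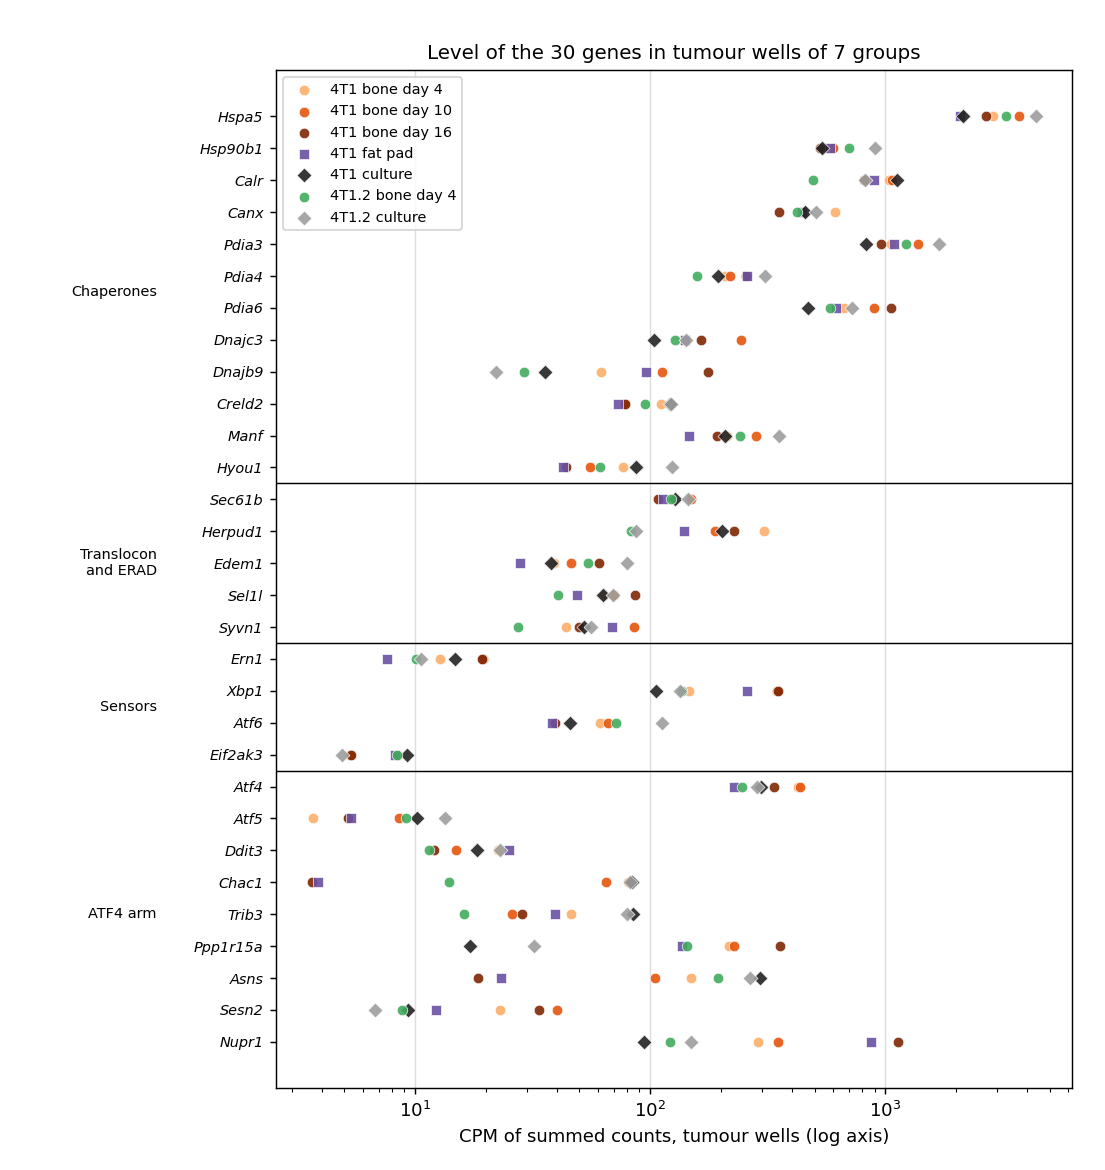
Level of each of the 30 genes in the tumour wells of the 7 groups, as CPM of the counts summed over wells, on a log axis (1 point per group). Hsp90b1 stays between 528 and 902 CPM, whereas Chac1, Asns, Ppp1r15a and Nupr1 of the ATF4 arm span the widest ranges of the 30, with Nupr1 between 94.1 and 1130 CPM.

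The following levels are CPM of the counts summed over the tumour wells of a group. A log2 ratio is that of CPM + 5 in one group over CPM + 5 in another, which understates the change of low genes, and a gene was called higher or lower where this ratio was at least 2-fold and either level reached 5 CPM. Exact Poisson intervals (95%) of levels of 5 CPM or more extended up to 10.4% upwards and 9.69% downwards, and cover counting error only, since reads carried no molecular identifiers. The 4 comparisons of 4T1 tissue groups share the wells of 4T1 culture, so their ratios move together with that group.

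Most chaperones stayed within 2-fold of culture, and Dnajb9, Dnajc3 and Pdia6 were the ones called. Hspa5 stood at 2879 CPM on day 4, 3689 CPM on day 10, 2686 CPM on day 16 and 2071 CPM in the fat pad, against 2140 CPM in 4T1 culture. Single wells ranged from 406 to 15346 CPM on day 4 (median 2451), 344 to 11102 CPM on day 10 (median 3477), 344 to 9863 CPM on day 16 (median 2645), 473 to 6983 CPM in the fat pad (median 1876) and 507 to 18028 CPM in culture (median 1600). The wells of all groups thus overlapped over most of their range, and the medians of the bone groups lay above that of culture. The log2 ratio of Hspa5 over culture was 0.43 on day 4, 0.78 on day 10, 0.33 on day 16 and -0.05 in the fat pad. Hsp90b1, the ER member of the HSP90 family, was flatter still, with ratios between -0.03 and 0.15. Hyou1, which exchanges nucleotides on BiP, had 76.8 CPM on day 4, 55.2 CPM on day 10, 43.8 CPM on day 16 and 42.5 CPM in the fat pad, against 87.3 CPM in culture. With 5 CPM added it stayed within 2-fold. It was called lower on day 16 by the mean and by the median of wells. In the fat pad it was called lower by the median of wells and with 1 CPM added.

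Dnajb9, a BiP co-chaperone that is a known target of XBP1, was the chaperone that stood furthest from culture. It had 61.5 CPM on day 4, 112 CPM on day 10, 176 CPM on day 16 and 96.3 CPM in the fat pad, against 35.6 CPM in culture. Wells had medians of 42.3, 79.4 and 158 CPM on the 3 days and 55.3 CPM in the fat pad, against 19.8 CPM in culture, and reached 440, 516, 644 and 391 CPM in those tissue groups and 481 CPM in culture. Its log2 ratios over culture were 0.71 on day 4, 1.53 on day 10, 2.16 on day 16 and 1.32 in the fat pad. Wells of all groups overlapped, and the highest well of culture lay above that of day 4 and of the fat pad and below those of days 10 and 16. Dnajc3, a co-chaperone of BiP, was past 2-fold only on day 10 (243 CPM against 104 CPM in culture, log2 ratio 1.19), and the disulfide isomerase Pdia6 only on day 16 (1055 CPM against 471 CPM in culture, log2 ratio 1.15). Under TMM, DESeq2 or mean-of-wells scaling Pdia6 was called on day 10 as well, where its reported ratio is 0.92. On day 4, 0 of 12 chaperones were called, and the count higher was 2 on day 10, 2 on day 16 and 1 in the fat pad, with 0 lower in each. The median log2 ratio of the 12 was 0.22 on day 4, 0.30 on day 10, 0.09 on day 16 and 0.03 in the fat pad, beside -0.06, -0.17, -0.08 and -0.14 over all genes compared.

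The share of all genes called gives the background to these counts. On day 4 over culture 5.18% of 10234 genes were called higher and 3.60% lower, on day 10 9.53% and 8.54%, on day 16 15.5% and 15.5%, and in the fat pad 10.7% and 13.3%. Of the 30 genes, 2 were higher and 0 lower on day 4, 6 and 2 on day 10, 6 and 3 on day 16, and 4 and 3 in the fat pad. For the chaperones the called shares lay near or under the background, apart from the 2 of 12 higher on day 10.

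None of the 5 translocon and ERAD genes was called in any 4T1 tissue group over culture. Herpud1, which anchors the ubiquitin ligase complex of ERAD, had 304 CPM on day 4, 189 CPM on day 10, 227 CPM on day 16 and 139 CPM in the fat pad, against 202 CPM in culture. Its wells were spread unevenly in culture, with a median of 54.4 CPM, a highest well of 2641 CPM, and 60.0% of the summed CPM of single wells in the highest 10% of wells. In bone the median wells were at 248 CPM on day 4, 161 CPM on day 10 and 172 CPM on day 16. The ratio of sums therefore understates how far the typical well stood from culture for this gene. Syvn1, the ubiquitin ligase of ERAD, ranged from 44.0 CPM on day 4 to 85.2 CPM on day 10, against 52.4 CPM in culture, and its adaptor Sel1l from 48.8 CPM in the fat pad to 86.0 CPM on day 16, against 62.7 CPM in culture. Edem1, which delivers misfolded glycoproteins to ERAD, had 60.4 CPM on day 16 and 27.9 CPM in the fat pad, against 37.8 CPM in culture. Sec61b, a subunit of the translocon channel, stayed between 108 and 149 CPM in tissue, against 127 CPM in culture.

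Among the sensor genes, Xbp1 was called higher than in culture on days 10 and 16 and in the fat pad, and Ern1, Atf6 and Eif2ak3 were called in no 4T1 tissue group. Xbp1 had 147 CPM on day 4, 348 CPM on day 10, 349 CPM on day 16 and 259 CPM in the fat pad, against 106 CPM in culture. Single wells ranged from 0.468 to 609 CPM on day 4 (median 106), 16.4 to 1058 CPM on day 10 (median 314), 3.36 to 2396 CPM on day 16 (median 316), 1.68 to 1606 CPM in the fat pad (median 152) and 4.98 to 436 CPM in culture (median 78.8). Wells overlapped between groups, and the median wells of days 10 and 16 lay below the highest culture well. Log2 ratios over culture were 0.45 on day 4, 1.67 on day 10, 1.68 on day 16 and 1.26 in the fat pad, where the ratio of median wells was 0.91. Counts per gene do not separate spliced from unspliced Xbp1. The receptor gene Ern1 had 12.7, 19.5 and 19.2 CPM on days 4, 10 and 16 and 7.57 CPM in the fat pad, against 14.8 CPM in culture. Atf6 had 61.3, 65.8 and 39.3 CPM on the 3 days and 38.3 CPM in the fat pad, against 45.8 CPM in culture. Eif2ak3 was under 10 CPM in all 7 groups, and 8.05% of its exon length overlaps another gene model.

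**Figure D2:**
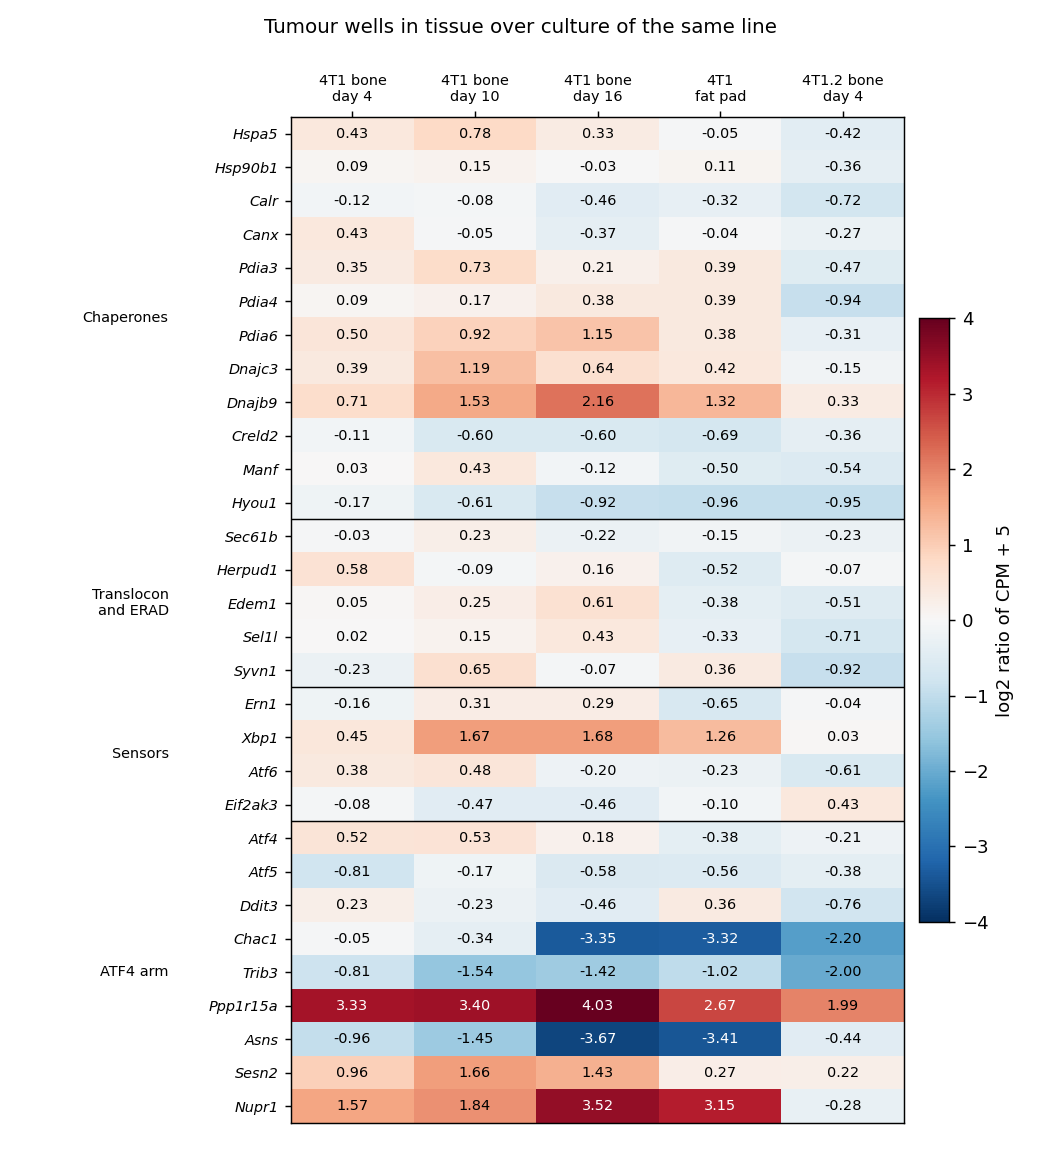
Log2 ratio of CPM + 5 in tumour wells of each tissue group over culture of the same line (columns) for the 30 genes (rows), with the ratio printed in each cell. Colour departs from white mainly in the ATF4 arm and at Dnajb9 and Xbp1, and Ppp1r15a is positive in all 5 columns, from 1.99 to 4.03.

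The ATF4 arm held genes called in both directions. Ppp1r15a and Nupr1 were called higher in all 4 tissue groups of 4T1, whereas Asns and Trib3 were called lower on days 10 and 16 and in the fat pad, and Chac1 on day 16 and in the fat pad. Atf4 mRNA itself was within 2-fold in each, with 427 CPM on day 4, 432 CPM on day 10, 337 CPM on day 16 and 227 CPM in the fat pad, against 297 CPM in culture. Since ATF4 is controlled largely by translation, its mRNA does not report its protein. Of the 9 genes, 2 were called higher and 0 lower on day 4, 3 and 2 on day 10, 3 and 3 on day 16, and 2 and 3 in the fat pad. On day 16 that is 3 of 9 in each direction, beside 15.5% of all genes in each. All-gene shares higher and lower were 5.18% and 3.60% on day 4, 9.53% and 8.54% on day 10, and 10.7% and 13.3% in the fat pad. The median log2 ratio of the arm was 0.23 on day 4, -0.17 on day 10, -0.46 on day 16 and -0.38 in the fat pad. Over all genes compared it was -0.06, -0.17, -0.08 and -0.14, so on day 10 the arm lay at the all-gene median.

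Asns, which makes asparagine from aspartate, had 149 CPM on day 4, 104 CPM on day 10, 18.6 CPM on day 16 and 23.2 CPM in the fat pad, against 294 CPM in 4T1 culture. Wells ranged from 0.712 to 560 CPM on day 4 (median 117), 0 to 464 CPM on day 10 (median 61.2), 0 to 577 CPM on day 16 (median 0.673), 0 to 258 CPM in the fat pad (median 0.745) and 33.9 to 744 CPM in culture (median 236). No culture well was under 33.9 CPM, whereas most wells of day 16 and the fat pad were, and a few wells of these groups remained in the culture range. Log2 ratios over culture were -0.96 on day 4, -1.45 on day 10, -3.67 on day 16 and -3.41 in the fat pad. With every well thinned to 500000 reads, Asns was detected in 97.0% of tumour wells on day 4, 82.7% on day 10, 49.3% on day 16 and 52.4% in the fat pad, against 100% in culture.

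Chac1, a glutathione-degrading enzyme, was near its culture level early and near 0 late. It had 80.5 CPM on day 4, 64.7 CPM on day 10, 3.66 CPM on day 16 and 3.86 CPM in the fat pad, against 83.5 CPM in culture. A few wells carried most of it, as the median well had 23.0 CPM on day 4, 1.33 CPM on day 10 and 0 CPM on day 16 and in the fat pad, against 9.28 CPM in culture, while the highest wells had 632, 542, 71.7 and 107 CPM in these tissue groups and 905 CPM in culture. Wells at 0 numbered 16 of 137, 10 of 54, 41 of 71 and 67 of 85 in tissue, against 3 of 54 in culture. The log2 ratio over culture was -0.05 on day 4, -0.34 on day 10, -3.35 on day 16 and -3.32 in the fat pad. At 500000 reads per well it was detected in 68.1% of wells on day 4, 51.9% on day 10, 23.2% on day 16 (95% interval 13.9 to 34.9%, Clopper-Pearson) and 11.9% in the fat pad (5.86 to 20.8%), against 75.5% in culture. Trib3, a pseudokinase that binds ATF4 and AKT, had 45.9, 25.7 and 28.4 CPM on the 3 days and 39.2 CPM in the fat pad, against 84.5 CPM in culture. It was called lower on day 10 (log2 ratio -1.54), on day 16 (-1.42) and in the fat pad (-1.02), the last of which became -0.85 under TMM scaling.

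Ppp1r15a and Nupr1 stood on the other side. Ppp1r15a, whose product GADD34 recruits a phosphatase to eIF2alpha, had 217 CPM on day 4, 228 CPM on day 10, 356 CPM on day 16 and 136 CPM in the fat pad, against 17.1 CPM in culture. Wells ranged from 0 to 1440 CPM on day 4 (median 159), 0.992 to 2042 CPM on day 10 (median 134), 2.69 to 3092 CPM on day 16 (median 232), 0 to 674 CPM in the fat pad (median 76.4) and 0 to 149 CPM in culture (median 7.35). The typical bone well on days 4 and 16 was above the highest culture well, although the ranges overlapped. Log2 ratios were 3.33, 3.40 and 4.03 on days 4, 10 and 16 and 2.67 in the fat pad. Early-response and dissociation genes were higher in the same groups: the summed level of 15 such genes was 21125 CPM on day 4, 18863 CPM on day 10, 35040 CPM on day 16 and 21212 CPM in the fat pad, against 4441 CPM in culture, and Fos had 6889, 4146, 11666 and 6558 CPM in those tissue groups, against 19.0 CPM in culture. Handling differs between tissue and culture, and for Ppp1r15a, as for every gene compared over culture, it cannot be told apart from the tissue.

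**Figure D3:**
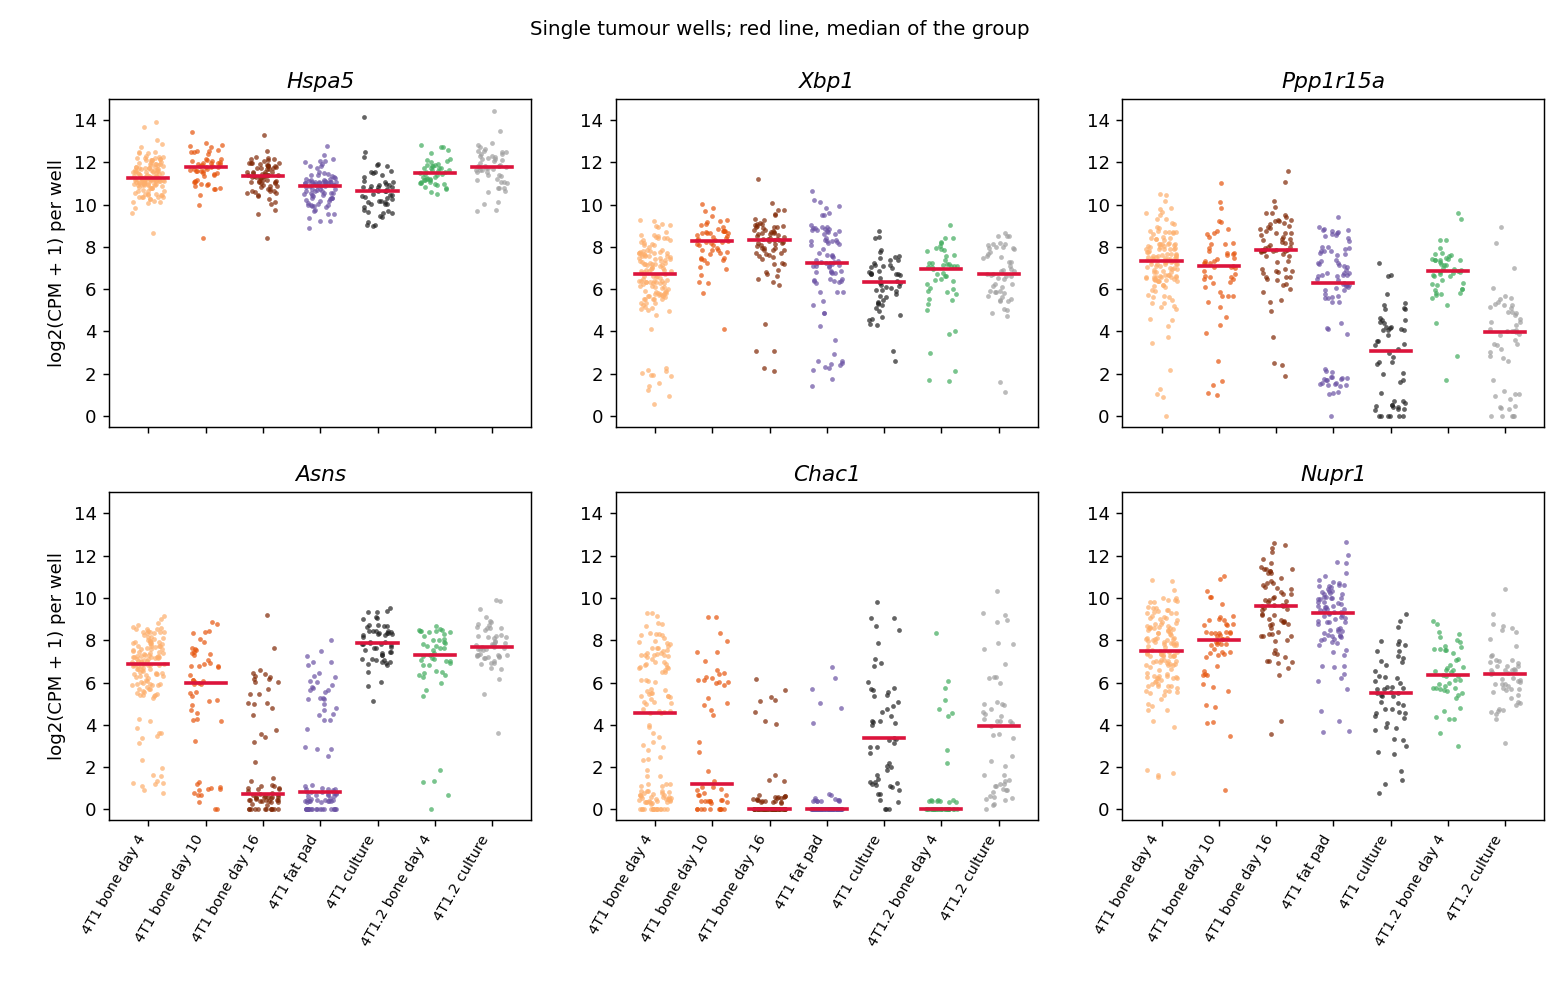
Single tumour wells (points) of the 7 groups for Hspa5, Xbp1, Ppp1r15a, Asns, Chac1 and Nupr1, as log2(CPM + 1), with a red line at the median well of each group. Hspa5 overlaps between all groups, Asns wells lie both near 0 and in the culture range on day 16 and in the fat pad, and Ppp1r15a is lowest in the 2 culture groups (medians 7.35 and 14.5 CPM).

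Nupr1 had 289 CPM on day 4, 349 CPM on day 10, 1130 CPM on day 16 and 872 CPM in the fat pad, against 94.1 CPM in 4T1 culture. Well medians were 182, 255 and 773 CPM on the 3 days and 615 CPM in the fat pad, against 44.5 CPM in culture, with lowest and highest wells of 11.0 and 6240 CPM on day 16 and of 0.718 and 604 CPM in culture. The median day 16 well thus lay above every culture well. Log2 ratios over culture were 1.57 on day 4, 1.84 on day 10, 3.52 on day 16 and 3.15 in the fat pad. Sesn2, a stress-induced inhibitor of mTORC1, had 22.9, 40.1 and 33.5 CPM on the 3 days and 12.2 CPM in the fat pad, against 9.29 CPM in culture, and was called higher on day 10 (log2 ratio 1.66) and day 16 (1.43). On day 16 this rested on a minority of wells, as the median well had 1.37 CPM against 0.109 CPM in culture, and the ratio of median wells was 0.32. Ddit3, which encodes the pro-apoptotic factor CHOP, stayed between 12.0 and 25.0 CPM in 4T1 tissue, against 18.4 CPM in culture, and Atf5, a factor translated under the same control as ATF4, between 3.69 and 8.54 CPM, against 10.2 CPM in culture. With 5 CPM added, none of the tissue groups passed 2-fold for Ddit3 or Atf5. With 1 CPM added, Atf5 was called lower on day 4. Sesn2 was called higher on day 4 with 1 CPM added, under TMM scaling and by the mean of wells.

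More of the other known ATF4 targets were called lower than higher. In a list of 45 further ATF4 targets, of which 37 were compared, 2 were called higher and 3 lower on day 4, 2 and 9 on day 10, 4 and 22 on day 16, and 2 and 21 in the fat pad. Their median log2 ratio was -0.42 on day 4, -0.68 on day 10, -1.11 on day 16 and -1.16 in the fat pad. Over all genes, the shares called higher and lower were 5.18% and 3.60% on day 4 and 9.53% and 8.54% on day 10. They were 15.5% and 15.5% on day 16, and 10.7% and 13.3% in the fat pad. Psat1, an enzyme of serine synthesis, had 317 CPM on day 4, 194 CPM on day 10, 16.5 CPM on day 16 and 22.7 CPM in the fat pad, against 576 CPM in culture. The mitochondrial folate enzymes Shmt2 and Mthfd2 had 60.7 and 9.53 CPM on day 16 and 91.1 and 6.05 CPM in the fat pad, against 441 and 124 CPM in culture. The exceptions on day 16 were Atf3 (1736 CPM against 54.6 CPM in culture), Cebpb (349 against 45.4 CPM), Ddit4 (69.9 against 14.9 CPM) and the amino acid transporter Slc38a2 (653 against 291 CPM). Atf3 is also 1 of the 15 early-response genes above. Of 37 further ER folding and translocon genes, 1 was called higher on day 10, 4 on day 16 and 1 in the fat pad, and 3 were called lower in the fat pad. As shares of the 37, these counts lie under those of all genes. Those higher on day 16 were Selenok, Fkbp14, Sil1 and Selenos, among which Sil1, a nucleotide exchange factor of BiP, had 54.6 CPM against 22.4 CPM in culture.

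Within bone, the summed levels of the 30 genes differed little between days 4 and 10. Xbp1 alone was called higher on day 10 than on day 4 (log2 ratio 1.22) and 0 were lower, where 4.64% and 2.73% of 10331 genes were called. By median wells 5 genes were called, 3 higher and 2 lower, with Ern1, Chac1, Trib3 and Sesn2 added to Xbp1. On day 16 over day 4, 3 were higher (Nupr1 at 1.95, Dnajb9 at 1.45 and Xbp1 at 1.22) and 2 lower (Chac1 at -3.30 and Asns at -2.71), where 10.2% and 9.28% of 10523 genes were called. Chaperones had a median log2 ratio of 0.22 on day 10 and -0.13 on day 16 over day 4, and the ATF4 arm 0.02 and -0.33, so the late low level of Asns and Chac1 came without a matching shift of the chaperones.

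Bone on day 16 and the fat pad tumour on day 22 had close levels of Asns, Chac1 and Nupr1, while site and time differ together between them. Asns had 18.6 CPM in bone and 23.2 CPM in the fat pad, Chac1 3.66 and 3.86 CPM, and Nupr1 1130 and 872 CPM. Only Ppp1r15a (log2 ratio 1.36) and Sesn2 (1.16) of the 29 genes compared were called higher in bone and 0 lower, where 7.48% and 4.23% of 10590 genes were called. By median wells Sesn2 was at 0.26 and lost its call. That setting instead added Dnajb9, Edem1, Xbp1 and Ddit3 to Ppp1r15a, with 4 genes higher and 1 lower. The following ratios are again those of summed counts. Of the translocon and ERAD genes 0 were called, with Edem1 closest to the threshold at 0.99, Sel1l at 0.76, Herpud1 at 0.68 and Syvn1 at -0.43.

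In the 4T1.2 line the day 4 bone wells did not repeat the 4T1 pattern in full. Ppp1r15a had 143 CPM in 4T1.2 bone, against 32.1 CPM in 4T1.2 culture (log2 ratio 1.99), with well medians of 115 CPM in bone and 14.5 CPM in culture. Chac1 had 13.9 CPM in bone and 82.0 CPM in culture (log2 ratio -2.20), with 29 of 47 bone wells and 1 of 53 culture wells at 0, and Trib3 had 16.2 CPM in bone and 80.0 CPM in culture (-2.00). Asns stayed within 2-fold, with 195 CPM in bone and 267 CPM in culture, as did Nupr1, with 121 CPM in bone and 149 CPM in culture. These 1 higher and 2 lower genes are all that were called of the 30, where 6.17% and 3.15% of 10319 genes were called. Of the chaperones 0 were called, but all except Dnajb9 had a negative ratio, and their median was -0.39, beside -0.03 over all genes. TMM scaling, which moved the all-gene median by -0.10, gave 6 called genes in place of 3.

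Between the lines, 2 of 12 chaperones were called in culture and 4 of 9 genes of the ATF4 arm in bone. In 4T1.2 over 4T1 culture, Hspa5 had 4364 CPM in 4T1.2 and 2140 CPM in 4T1 (log2 ratio 1.03), Pdia3 1698 and 828 CPM (1.03) and Atf6 112 and 45.8 CPM (1.21), while Herpud1 had 87.1 and 202 CPM (-1.17). These 3 higher and 1 lower genes stand beside 3.62% and 4.98% of 10126 genes called. The mean of single wells put Hspa5 at 0.99 and Herpud1 at -0.90, and median wells put Pdia3 at 0.99 and Herpud1 at -0.26, so these 3 calls depend on how wells are combined. The median of the 12 chaperones was 0.54, beside -0.01 over all genes, and of 37 further folding and translocon genes 3 were called higher, 0 lower and 34 were within 2-fold. The highest of the 3 was the BiP co-chaperone Dnajb11, at 1220 CPM in 4T1.2 and 136 CPM in 4T1. In bone on day 4, 4T1.2 over 4T1, 0 were higher and 6 lower, where 4.19% and 5.07% of 10424 genes were called. Chac1 had 13.9 CPM in 4T1.2 and 80.5 CPM in 4T1 (log2 ratio -2.18), Herpud1 82.5 and 304 CPM (-1.82), Trib3 16.2 and 45.9 CPM (-1.26), Nupr1 121 and 289 CPM (-1.22), Calr 495 and 1033 CPM (-1.06) and Sesn2 8.76 and 22.9 CPM (-1.02). The median of the ATF4 arm was -0.78. Other ATF4 targets did not share this shift: of 35 compared in bone, 0 were higher and 3 lower. Their median was 0.01, beside 0.03 over all genes. In the stricter set of tumour wells, with at least 10 times more keratin than blood cell reads, the ratio of Nupr1 was -0.90. Median wells gave -0.91 for Calr and -0.08 for Sesn2, and Sesn2 was also under 2-fold by DESeq2 factors (-0.97) and the mean of wells (-0.96). That set held 22 of the 47 wells of 4T1.2 bone, and the blood cell markers were highest in this group.

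Across single tumour wells the chaperones varied together and the ATF4 arm less so. The median Spearman correlation of the 66 chaperone pairs was 0.29 over 137 wells on day 4, 0.36 on day 10, 0.30 on day 16, 0.24 in the fat pad and 0.44 in 4T1 culture, and 0.24 in 4T1.2 bone and 0.38 in 4T1.2 culture. Over the 36 pairs of the ATF4 arm it was 0.08, 0.03, 0.03, 0.09 and 0.24 in the same 4T1 groups, and 0.08 and 0.37 in 4T1.2 bone and culture. Between the arms, over 108 pairs, it lay between -0.03 and 0.10. Hspa5 and Manf, a secreted ER stress protein, ranged from 0.34 in 4T1.2 bone to 0.74 in 4T1 culture. Ppp1r15a went with Fos in tissue (0.45 on day 4, 0.66 on day 10, 0.57 on day 16, 0.34 in the fat pad and 0.49 in 4T1.2 bone), against 0.23 in 4T1 culture and -0.11 in 4T1.2 culture. Asns went with Psat1 (0.52, 0.67 and 0.37 on the 3 days, 0.18 in the fat pad and 0.64 in 4T1 culture). Wells of a group share library handling and differ in depth, and low genes such as Atf5 are too sparse for a weak value to be read.

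Within the bone groups, tumour wells had more Hspa5 and Nupr1 than host wells of the same groups. Hspa5 had 2879 CPM in tumour wells and 610 CPM in host wells on day 4, 3689 and 785 CPM on day 10, 2686 and 893 CPM on day 16, and 3255 and 749 CPM in 4T1.2 bone. Log2 ratios were 2.23, 2.23 and 1.58 on the 3 days and 2.11 in 4T1.2. Nupr1 had 289 CPM in tumour and 14.0 CPM in host wells on day 4, 349 and 26.1 CPM on day 10, 1130 and 68.6 CPM on day 16, and 121 and 10.2 CPM in 4T1.2 bone, with ratios of 3.95, 3.51, 3.95 and 3.06. Of the genes compared, 7 of 29 were called higher and 3 lower in tumour wells on day 4, where 17.0% and 19.6% of 11300 genes were called. The counts were 8 and 3 of 30 on day 10 (24.6% and 18.5% of 11048 genes), 6 and 2 of 30 on day 16 (23.9% and 17.9% of 11311 genes), and 5 and 5 of 30 in 4T1.2 bone (16.1% and 20.5% of 11402 genes). By median wells all 3 lower calls of day 4 were lost, with 18 genes called higher and 0 lower. As shares of the genes compared, those higher lay near the background and those lower under it. Chaperones had median log2 ratios of 0.77, 0.79 and 0.57 on the 3 days and 0.54 in 4T1.2, beside 0.02, 0.26, 0.22 and -0.04 over all genes.

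Of the 5 translocon and ERAD genes, 0 were called higher in tumour wells, and 2 were called lower on day 4, 1 on day 10, 1 on day 16 and 2 in 4T1.2 bone. Over all genes 19.6%, 18.5%, 17.9% and 20.5% were called lower in these comparisons, so 1 of 5 lies near that share. Called higher were 17.0%, 24.6%, 23.9% and 16.1% of all genes. Edem1 was called lower in tumour wells on all 3 days, with 39.1 CPM in tumour and 118 CPM in host wells on day 4 (log2 ratio -1.48), -1.33 on day 10 and -1.43 on day 16, and stood at -0.93 in 4T1.2 bone. Herpud1 had 304 CPM in tumour and 542 CPM in host wells on day 4 (-0.82), and 82.5 and 501 CPM in 4T1.2 bone (-2.53). Syvn1 was called lower on day 4 (-1.28) and in 4T1.2 bone (-2.29), and Eif2ak3 on day 4 (-1.30), day 10 (-1.20) and in 4T1.2 bone (-1.48). The day 4 ratios of median wells were -0.59 for Edem1, -0.40 for Syvn1 and -0.01 for Eif2ak3, none past 2-fold. In the ATF4 arm, Asns had 149 CPM in tumour and 73.7 CPM in host wells on day 4 (0.97), 104 and 37.4 CPM on day 10 (1.37), 18.6 and 33.3 CPM on day 16 (-0.70) and 195 and 44.5 CPM in 4T1.2 bone (2.01). Chac1 had 80.5 CPM in tumour and 20.7 CPM in host wells on day 4 (1.73), but 3.66 and 16.9 CPM on day 16 (-1.34). By median wells the day 16 ratio of Chac1 was 0. DESeq2 size factors moved the all-gene median by -0.33 on day 10 and -0.26 on day 16, and reduced the 11 genes called on day 10 to 6.

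**Figure D4:**
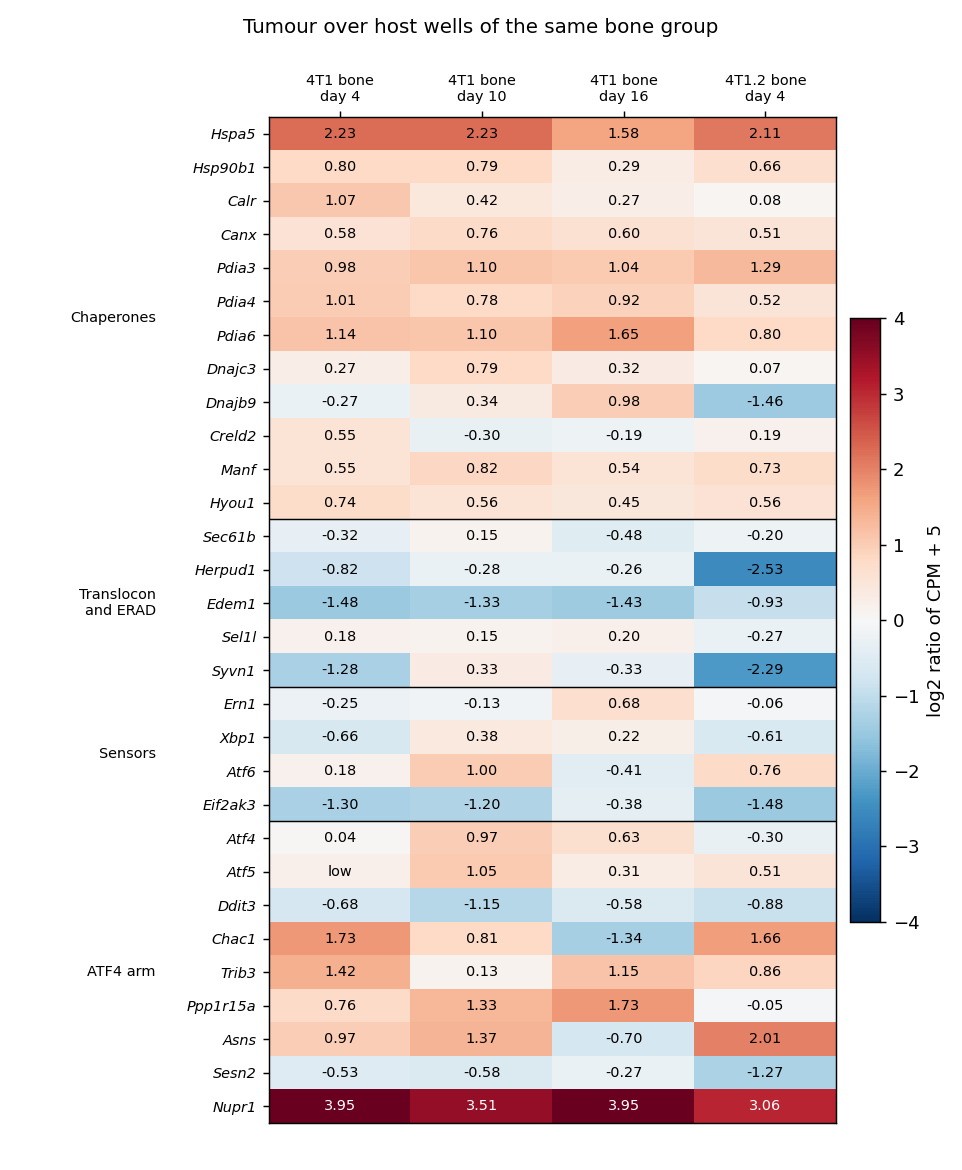
Log2 ratio of CPM + 5 in tumour wells over host wells of the same bone group (columns: 4T1 on days 4, 10 and 16 and 4T1.2 on day 4) for the 30 genes (rows), with the ratio printed in each cell and "low" where neither level reached 5 CPM. Nupr1 and Hspa5 are positive in all 4 columns, and Edem1 is negative in all 4.

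Host wells were of many kinds. Clustered without any ER or stress gene, the 717 wells of 5 groups formed 15 clusters, of which 12 could be named from their markers. Hspa5, with a median of 2451 CPM in tumour wells on day 4, was lower in every cluster. It was lowest in the neutrophil-like ones, with median wells of 44.9 CPM (75 wells), 115 CPM (59 wells) and 181 CPM (43 wells), and highest in a myeloid precursor-like one at 1049 CPM. Herpud1 had a median of 248 CPM in tumour wells on day 4, against 2101, 954 and 607 CPM in the B-lineage-like clusters and 11.6 CPM in the largest neutrophil-like cluster. Syvn1 peaked in the same B-lineage-like cluster as Herpud1, with 36.3 CPM in tumour wells on day 4 and 257 CPM there. Herpud1 and Syvn1 thus stood on both sides of the tumour level among the host clusters. Asns had 117 CPM in tumour wells on day 4, against 391 CPM in the erythroid-like cluster (29 wells), 166 CPM in the smallest neutrophil-like one and 2.97 CPM or less in the other 13 clusters. Xbp1 had 106 CPM in tumour wells on day 4, against 404 CPM in plasmacytoid dendritic-like wells and 399 CPM in myeloid precursor-like wells. Nupr1 had 182 CPM in tumour wells on day 4 and at most 14.3 CPM in any cluster, and Chac1 23.0 CPM and at most 1.08 CPM. The part of the host make-up in the tumour over host ratios was not tested. The cluster of 117 wells was left unnamed, and 91 of its wells came from 4T1.2 bone. Its 15 leading genes included Pax5, Fcrla and Igkc beside Mir6236 and Msi2, but only 1 B-lineage marker met the rule for a name, where 3 were needed. The summed level of 10 B-lineage markers had a median of 5143 CPM in host wells of 4T1.2 bone and 443 CPM in those of 4T1 bone on day 4. No doublet caller was run, since each well received 1 sorted cell.

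**Figure D5:**
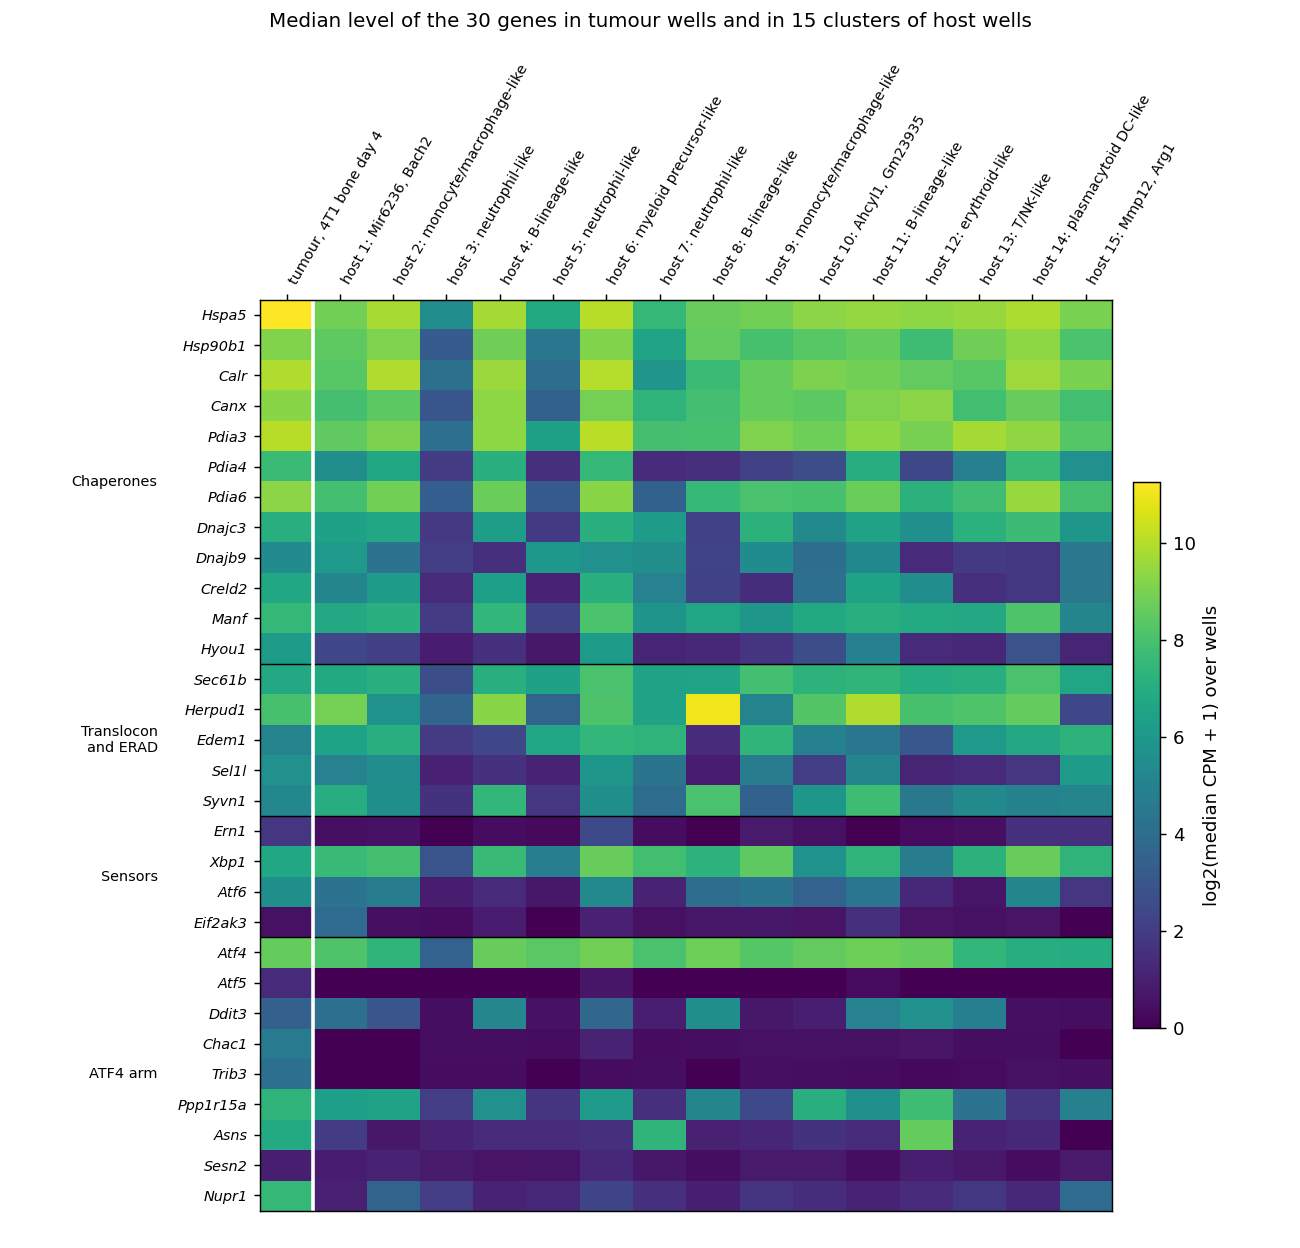
Median level over wells of the 30 genes (rows) in tumour wells of 4T1 bone on day 4 (first column) and in the 15 clusters of host wells, as log2(median CPM + 1). Chaperones are dark in neutrophil-like clusters 3 and 5, Herpud1 is brightest in B-lineage-like cluster 8, and Asns is bright in tumour wells, neutrophil-like cluster 7 and erythroid-like cluster 12.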

How the data were processed

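The deposited table holds whole-number read counts per gene and single-cell well, as the authors deposited them. The submitters' processing notes name Trim Galore 0.6.6, STAR 2.6.0c, featureCounts 1.6.2 and the build mm10, with no roles. Whether counting used strand is not known here. From 40840 entries, 78 spike-ins (0.670% of counts), 2 reporters (0.187%) and 4 date-like names (0.0149%) were left out of CPM. Wells with at least 1000 genes, 50000 counts and at most 25% mitochondrial counts were kept. Counts were summed per group and well class with Python 3.11.15, numpy 2.4.6 and scipy 1.17.1. Summed tumour counts were 138848006 to 451319997 per group. Because each group is 1 sample, no test, SE or p-value was computed. Thinning to 500000 reads left out 9 of 501 tumour wells. Host wells were clustered with leidenalg 0.10.2 on 2000 variable genes, 20 components and 15 neighbours. Alternatives were TMM factors (edgeR 4.0.16), DESeq2 1.42.0 size factors, mean and median of wells, other pseudocounts and filters, and stricter well classes, as scalings only, with no count model fitted. All 30 genes could be named, and from each other list up to 4 genes furthest higher and 4 furthest lower in a comparison. Members, lists and markers were chosen with earlier results of these data known.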

Additional observations from a re-analysis of the deposited data

Results flagged for a closer look

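These ratios pointed opposite ways under the same contrast, were at least 1 log2 unit apart and had at least 1 side past 2-fold. The differences themselves were not tested, since each group is 1 sample.

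Nupr1 on day 4 in bone over culture had a log2 ratio of 1.57 in 4T1 and -0.28 in 4T1.2. The other pairs are of tumour over host wells. Chac1 was 1.73 on day 4, 0.81 on day 10 and 1.66 in 4T1.2 bone, against -1.34 on day 16. By median wells Chac1 was 2.34 on day 4 but 0 in 4T1.2 bone and 0 on day 16. With stricter well classes it was 0.93 in 4T1.2 bone. At a minimum of 20 CPM the calls of Chac1 in 4T1.2 bone and on day 16 were lost. Asns was 1.37 on day 10 and 2.01 in 4T1.2 bone, against -0.70 on day 16. Both genes were low in tumour wells of day 16, at 3.66 CPM for Chac1 and 18.6 CPM for Asns. Syvn1 was 0.33 on day 10, against -1.28 on day 4 and -2.29 in 4T1.2 bone. Dnajb9 was 0.34 on day 10 and 0.98 on day 16, against -1.46 in 4T1.2 bone. Ppp1r15a was 1.33 on day 10 and 1.73 on day 16, against -0.05 in 4T1.2 bone. Atf6 was 1.00 on day 10 and -0.41 on day 16. Host wells differed in make-up between groups, and 91 of the 117 wells of the largest, unnamed host cluster were from 4T1.2 bone. The part of this make-up in these ratios was not tested.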

How the results depend on the processing

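Each count of the 30 genes past 2-fold was recomputed under 10 alternatives, and 124 of 140 recomputed counts were within 1.5 times the reported one. The median of single wells gave 4 genes on day 4 over 4T1 culture, 5 in 4T1.2 bone over culture, 5 on day 10 over day 4, 8 on day 16 over day 4, 5 on day 16 over the fat pad and 2 between cultures, and for tumour over host wells 18 on day 4, 19 on day 10 and 14 on day 16. The mean of single wells gave 2 between cultures. A pseudocount of 1 CPM gave 4 on day 4 over 4T1 culture, 2 on day 10 over day 4 and 4 on day 16 over the fat pad. TMM factors gave 6 in 4T1.2 bone over culture. DESeq2 size factors gave 2 on day 10 over day 4 and 6 for tumour over host wells on day 10. The cause was not tested.

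Of 86 called ratios recomputed in the same ways, 812 of 860 values kept their call and 48 lost it. One changed sign, Sesn2 in tumour over host wells of 4T1.2 bone, at -1.27 as reported and 0.0071 by median wells. TMM and DESeq2 scaling moved the median of all genes over 4T1 culture by 0.05 to 0.17, so called ratios that exceed the 2-fold threshold by less than this are not settled. No replicate could be left out and no paired analysis was possible because each group is 1 sample with no animal or culture named. Levels under about 5 CPM rest on few wells. Hsp90b1 shares 10.3% of its exon length with another gene model, and without strand use the reads cannot be told apart.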

Other observations

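A list of other eIF2alpha kinases, eIF2 and its exchange factor acts upstream of ATF4. Of 9 genes compared over 4T1 culture, 0 were higher in any group, and 1 was lower on day 4, 2 on day 10, 5 on day 16 and 3 in the fat pad, with median log2 ratios of -0.42, -0.75, -1.27 and -0.82. Over all genes 3.60%, 8.54%, 15.5% and 13.3% were lower in these comparisons. In 4T1.2 bone over culture 1 of 9 was lower, with a median of -0.08 beside -0.03 over all genes, where 3.15% were lower. Eif2ak2, the kinase that senses double-stranded RNA, had 34.7 CPM on day 4, 26.2 CPM on day 10, 21.3 CPM on day 16 and 27.5 CPM in the fat pad, against 96.9 CPM in 4T1 culture. In 4T1.2 bone it had 28.8 CPM, against 70.7 CPM in 4T1.2 culture. Eif2s1, the alpha subunit of eIF2, had 167 CPM on day 16 and 175 CPM in the fat pad, against 437 CPM in 4T1 culture.

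The 4T1.2 line stood apart from 4T1 in a few genes of the further ER and eIF2 lists, in bone as in culture. Of 37 further ER folding and translocon genes, 35 were within 2-fold between the lines in bone and 34 in culture. Where the genes named here lie in the genome was not examined. Dnajb11, a BiP co-chaperone, had 857 CPM in 4T1.2 bone and 142 CPM in 4T1 bone on day 4, and 1220 CPM in 4T1.2 culture and 136 CPM in 4T1 culture. Ufd1, which extracts ERAD substrates with the ATPase Vcp, had 281 and 77.7 CPM in bone and 307 and 90.5 CPM in culture. Eif2b5, a subunit of the eIF2 exchange factor, had 401 and 106 CPM in bone (4T1.2 and 4T1 on day 4) and 457 and 106 CPM in culture. Sdf2l1, which acts with BiP co-chaperones, had 89.6 and 36.5 CPM in bone and 248 and 57.2 CPM in culture.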
